A study of Danio rerio with 6 samples.

Results

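A set of 10 neuronal genes was followed in bcas2 knockout (bcas2-KO) zebrafish at 3 days post fertilization: elavl3, elavl4, gap43, stmn1b, stmn4, nefma, snap25a, snap25b, syt1a and cplx2. Genes were taken by their symbol in the deposited table, and cplx2 is the symbol of 2 Ensembl genes, so the set held 11 of the 32520 genes listed, and all 11 were among the 22347 genes tested. Transcripts were measured by RNA sequencing of whole embryos in 6 libraries, 3 from bcas2-KO pools and 3 from wild-type (WT) pools, with 10 embryos of 1 genotype in each pool. Both genotypes were sampled at the same age, and no treatment is named. The sources used here do not name the strain, the mutant allele, the zygosity of the bcas2-KO pools or the clutches. The p-values therefore measure the spread between these pools. In whole embryos, fewer cells of a type and less RNA per cell cannot be told apart.

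Neurons that have left the cell cycle switch on RNA-binding proteins of the Elavl (Hu) family, which bind AU-rich stretches of neuronal messages. Their axons contain the growth cone protein Gap43, stathmins, which bind tubulin and regulate microtubules, and neurofilaments, which fill and widen the axon. At the synapse, Snap25 forms part of the SNARE bundle that pulls the vesicle to the membrane, synaptotagmin 1 senses the calcium that triggers release, and complexin binds the assembled SNARE bundle.

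The targeted gene bcas2, whose product belongs to a splicing complex around Prp19, had 3.54, 3.09 and 4.49 CPM (the count scaled to the size of its library) in the bcas2-KO pools, against 29.4, 27.9 and 27.4 CPM in the WT pools. Libraries held 32822716 to 40462653 gene counts in bcas2-KO and 35560010 to 49526995 in WT. Each of the neuronal genes had between 730 and 9152 counts in a library, so that counting error alone was 3.70% at the lowest and 1.05% at the highest. Transcripts of skeletal muscle, glia and neural progenitors were present in all pools. The libraries of bcas2-KO pool 3 and WT pool 1 stood apart. Summed levels of lens and of photoreceptor transcripts were high in these and low in the other 4. The lens crystallin gene crybb1 had 73.1 CPM in bcas2-KO pool 3, 71.6 CPM in WT pool 1 and at most 0.449 CPM elsewhere. In the other 4 libraries its counts were 3 and 1 in bcas2-KO and 9 and 15 in WT. Whether the pools differed in stage or in tissue content was not tested. For each neuronal gene the log2 fold change is therefore also given for the other 4 libraries.

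Some of the neuronal genes were called lower in bcas2-KO, and the others did not pass the test. Of the 11, 3 were called lower (edgeR quasi-likelihood test, adjusted p under 0.05 over all genes tested), 0 were called higher and 8 did not pass. These 3 were gap43, nefma and 1 of the 2 cplx2 genes. The threshold alone parts nefma, at a log2 fold change of -0.24, from the uncalled cplx2 gene, at -0.27. DESeq2 likewise gave 3 lower and 0 higher, and 4 of the 11 had an unadjusted p under 0.05 in edgeR. Across all tested genes 19.6% were called, 9.01% as lower and 10.6% as higher, and with upper-quartile factors the share of higher genes among the calls was 39.9% in place of 54.1%. The count of all genes called was 1974 without bcas2-KO pool 1, 2491 without bcas2-KO pool 3 and 1730 without WT pool 2, against 4382 in all pools. The median log2 fold change of the 11 was -0.18, beside -0.018 over all genes tested. This median of the 11 depended on single pools and lay between -0.22 and -0.032 when 1 was left out. It was -0.22 without bcas2-KO pool 3, -0.080 without WT pool 1 and -0.032 without bcas2-KO pool 2. The genotypes' CPM ranges were apart in 4 of the 11, each lower in bcas2-KO, where 39.4% of tested genes had no overlap and 19.4% had none with bcas2-KO lower. With bcas2-KO pool 3 and WT pool 1 left out, gap43 and the same cplx2 gene were called and nefma was not. The set is small and was picked with earlier results known, so its share of calls is a description.

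**Figure D1:**
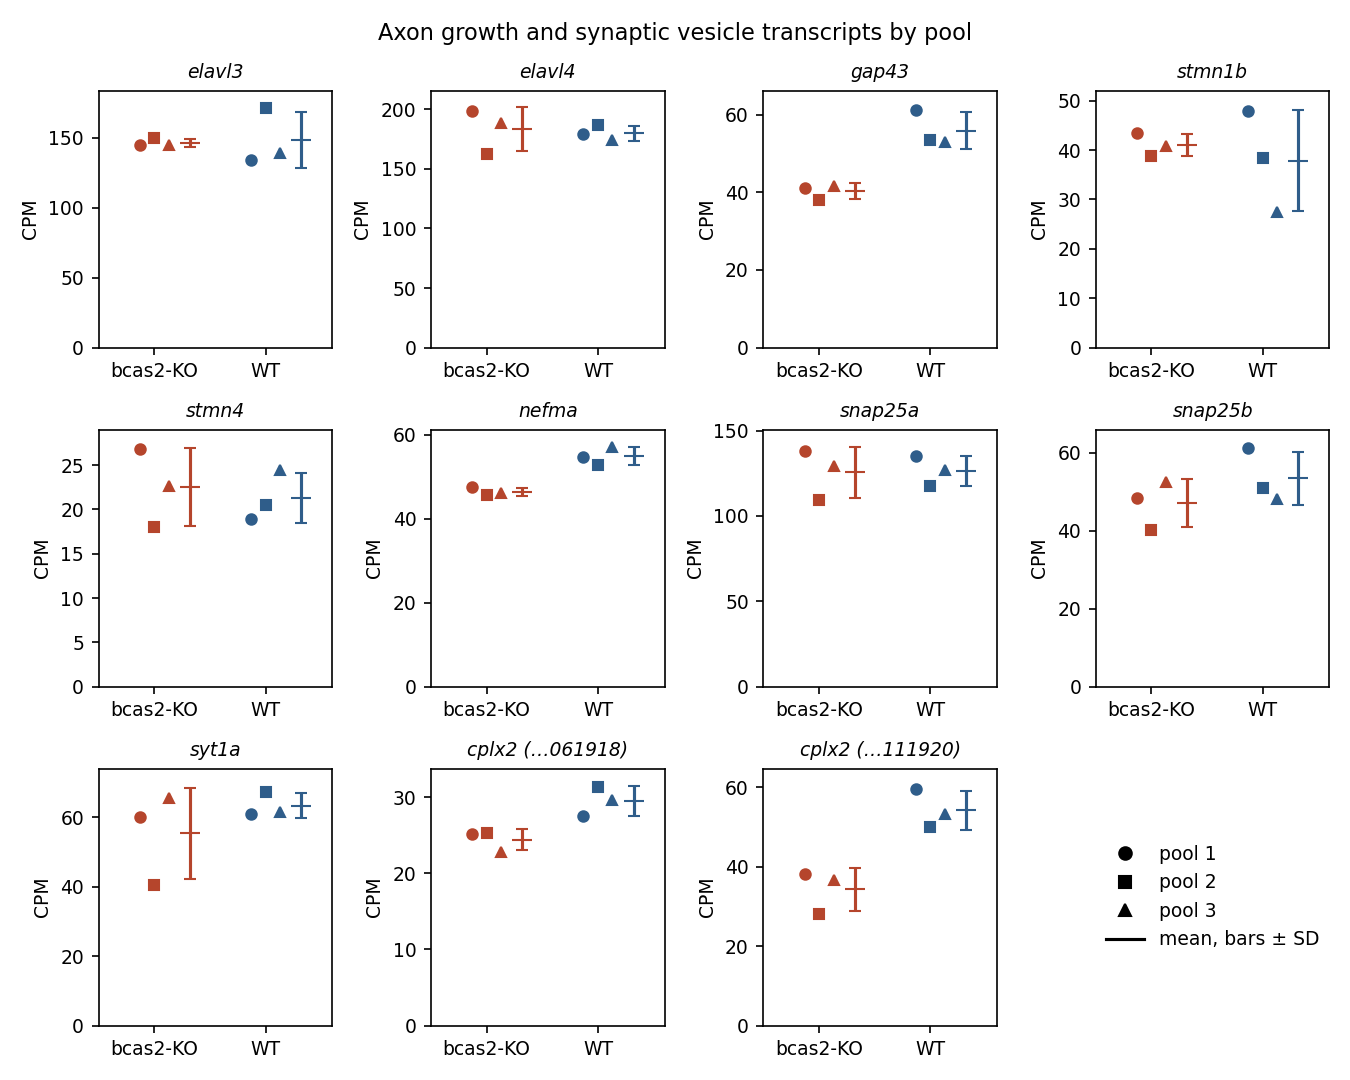
Level of each gene in CPM (vertical axes, each from 0) in the 3 bcas2-KO pools (left in each panel, red) and the 3 WT pools (right, blue), with the mean and SD beside the points. The points of the genotypes do not overlap for gap43, nefma and both cplx2 genes, and pool 2 (squares) is the lowest bcas2-KO pool for 9 of the 11.

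Neither elavl gene passed the test. The gene elavl3 (ENSDARG00000014420), whose product HuC marks nearly all differentiating neurons, had 145, 150 and 145 CPM in the bcas2-KO pools, against 134, 171 and 139 CPM in the WT pools. The bcas2-KO values lay close together and within the WT range. The log2 fold change (bcas2-KO over WT) was -0.018 (SE 0.097, 95% interval -0.24 to 0.20, edgeR adjusted p = 0.917), and it was -0.068 in the 4 libraries low in eye transcripts. The related gene elavl4 (ENSDARG00000045639), which codes for HuD, had 198, 162 and 188 CPM in bcas2-KO and 179, 186 and 174 CPM in WT. Here the WT pools were the tighter group and lay inside the bcas2-KO range. Its log2 fold change was 0.025 (SE 0.088, 95% interval -0.17 to 0.22, edgeR adjusted p = 0.870), and it was 0.0086 in the 4 libraries. In RefSeq's gene table of the assembly GRCz12tu, elavl4 was the only one of the 9 symbols with an entry that lay on the chromosome of bcas2, with 114 genes between them. The third neuronal member of the family, elavl2, was too low to be tested, at no more than 0.329 CPM in any pool.

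Transcripts of gap43 fell in bcas2-KO. This gene (ENSDARG00000099744), whose product is a membrane protein of the growth cone, had 41.2, 38.1 and 41.7 CPM in the bcas2-KO pools, against 61.3, 53.4 and 52.9 CPM in the WT pools. All 3 bcas2-KO pools were below all 3 WT pools. The mean was 40.3 ± 1.98 CPM in bcas2-KO and 55.9 ± 4.70 CPM in WT (SD, n = 3 pools each), 1.39-fold lower. The log2 fold change was -0.47 (SE 0.085, 95% interval -0.66 to -0.28, edgeR adjusted p = 0.00560). In the 4 libraries low in eye transcripts it was -0.42 (edgeR adjusted p = 0.0225). Relative to elavl3 in the same library, the FPKM of gap43 was 1.25, 1.11 and 1.26 in bcas2-KO and 2.00, 1.37 and 1.66 in WT. The same ratio of nefma overlapped between the genotypes, at 0.479, 0.446 and 0.466 in bcas2-KO and 0.595, 0.452 and 0.600 in WT. In this ratio both cplx2 genes had ranges apart, and the ranges of the remaining genes overlapped. These comparisons were chosen after the values were seen and are given with no test. The share of all tested genes with ranges apart in this ratio was not computed, and in CPM it was 39.4%.

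The 2 stathmin genes did not pass the test. The gene stmn1b (ENSDARG00000033655) had 43.4, 38.9 and 40.9 CPM in the bcas2-KO pools, against 47.9, 38.3 and 27.5 CPM in the WT pools. The bcas2-KO pools were close together, while WT pool 3 was well below the other WT pools. The log2 fold change was 0.11 (SE 0.18, 95% interval -0.30 to 0.53, edgeR adjusted p = 0.697), and it depended on single WT pools. It was -0.072 without WT pool 3, 0.32 without WT pool 1 and 0.33 in the 4 libraries low in eye transcripts (edgeR adjusted p = 0.711, 0.127 and 0.209). The gene stmn4 (ENSDARG00000030106) had 26.9, 18.1 and 22.6 CPM in bcas2-KO and 18.9, 20.5 and 24.4 CPM in WT. The WT range lay inside the bcas2-KO range, with a log2 fold change of 0.085 (SE 0.15, 95% interval -0.26 to 0.43, edgeR adjusted p = 0.735). Without bcas2-KO pool 1 it was -0.056 (edgeR adjusted p = 0.840), without bcas2-KO pool 2 it was 0.22 (0.292), and in the 4 libraries it was 0.0096 (0.978).

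With 4 other stathmin genes added (stmn1a, stmn2a, stmn2b and stmn3), edgeR and DESeq2 each called 0 of 6, and 0 reached an unadjusted p under 0.05. Of all tested genes, edgeR called 19.6%. The 6 log2 fold changes lay between 0.015 and 0.28.

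The neurofilament gene nefma fell by a small margin. This gene (ENSDARG00000021351), for the medium neurofilament chain, had 47.5, 45.6 and 46.1 CPM in the bcas2-KO pools, against 54.7, 52.9 and 57.2 CPM in the WT pools. The genotypes did not overlap, and the pools of each varied little, with a coefficient of variation of 2.05% in bcas2-KO and 3.94% in WT. The log2 fold change was -0.24 (SE 0.071, 95% interval -0.40 to -0.085, edgeR adjusted p = 0.0393), 1.18-fold lower. This call was lost when any 1 of the 6 pools was left out (edgeR adjusted p = 0.0542 without WT pool 1, up to 0.115 without bcas2-KO pool 3), while the log2 fold change stayed between -0.27 and -0.21. In the 4 libraries low in eye transcripts it was -0.23 and not called (edgeR adjusted p = 0.127).

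Other genes of the neuronal intermediate filaments differed among themselves. With nefma, 4 of 6 were called lower and 0 higher by edgeR, DESeq2 also called 4, and 5 had an unadjusted p under 0.05, where 9.01% of all tested genes were called lower. The internexin gene inaa fell most, to 1.26, 0.915 and 1.48 CPM in the bcas2-KO pools, against 2.62, 3.26 and 4.22 CPM in the WT pools (log2 fold change -1.47, SE 0.25, edgeR adjusted p = 0.00407). The second internexin gene inab had a log2 fold change of -0.39 (edgeR adjusted p = 0.0155) and the light chain gene neflb, chosen after its values were seen, one of -0.34 (edgeR adjusted p = 0.0374). The call of inab was lost without bcas2-KO pool 1, bcas2-KO pool 3 or WT pool 2 (edgeR adjusted p = 0.0503 to 0.0749). That of neflb was lost without any bcas2-KO pool or without WT pool 2 or 3 (edgeR adjusted p = 0.0715 to 0.111). The light chain gene nefla, also chosen after its values were seen, had a log2 fold change of -0.41 and did not pass (edgeR adjusted p = 0.0738). The paralog nefmb, chosen in the same way, had 94.0, 89.1 and 92.5 CPM in bcas2-KO and 87.2, 88.5 and 104 CPM in WT. Its log2 fold change was -0.022 (95% interval -0.21 to 0.17, edgeR adjusted p = 0.882). Its FPKM was 2.31, 2.28 and 2.34 times that of nefma in the bcas2-KO pools and 1.86, 1.95 and 2.12 times in the WT pools, values chosen after they were seen and given with no test.

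**Figure D2:**
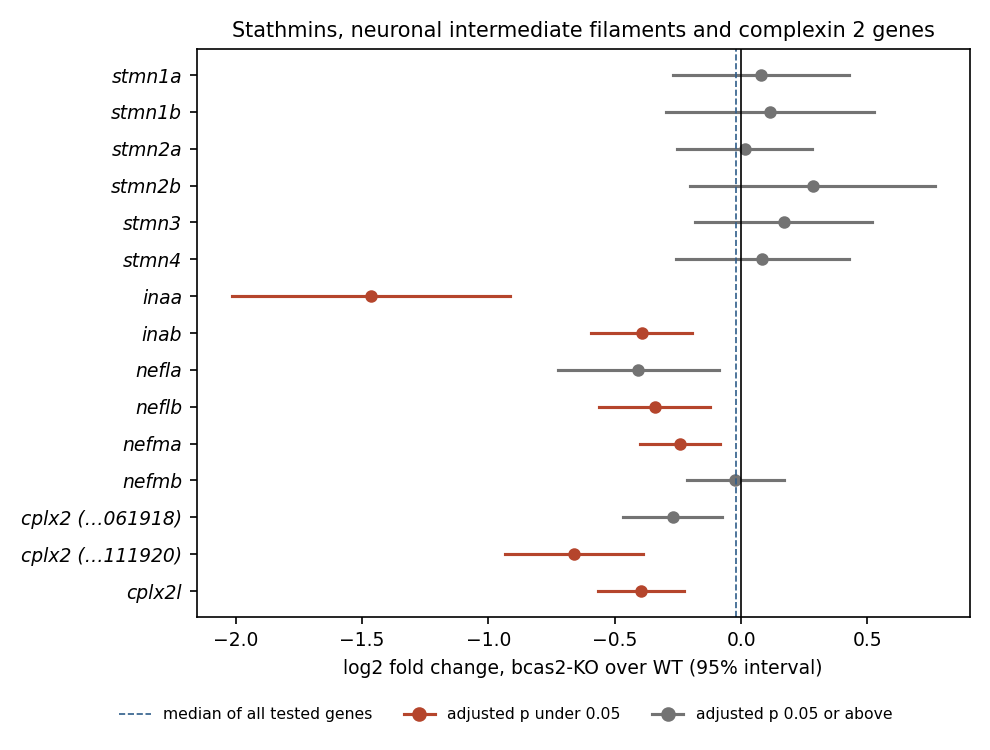
Log2 fold change of bcas2-KO over WT (horizontal axis) with its 95% interval for 6 stathmin genes, 6 neuronal intermediate filament genes and 3 complexin 2 genes. Red marks an adjusted p under 0.05. The stathmins lie between 0.015 and 0.28, the intervals of inaa, inab, nefla, neflb, nefma and the 3 complexin 2 genes lie wholly below 0, and nefmb lies at -0.022.

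The SNARE genes snap25a and snap25b did not pass. The gene snap25a (ENSDARG00000020609) had 138, 109 and 129 CPM in the bcas2-KO pools, against 135, 117 and 127 CPM in the WT pools. The WT range lay inside the bcas2-KO range, with a log2 fold change of -0.0095 (SE 0.099, 95% interval -0.23 to 0.21, edgeR adjusted p = 0.958), and it was 0.027 in the 4 libraries low in eye transcripts. The paralog snap25b (ENSDARG00000058117) had 48.4, 40.3 and 52.6 CPM in bcas2-KO and 61.2, 51.0 and 48.2 CPM in WT. The lowest value was in bcas2-KO pool 2 and the highest in WT pool 1, and the ranges overlapped. Its log2 fold change was -0.18 (SE 0.12, 95% interval -0.45 to 0.085, edgeR adjusted p = 0.311). It was -0.071 without WT pool 1, -0.081 without bcas2-KO pool 2, -0.27 without bcas2-KO pool 3 and -0.15 in the 4 libraries, and did not pass in any of these (edgeR adjusted p = 0.686, 0.680, 0.212 and 0.380). Zebrafish Snap25a and Snap25b are close paralogs, and the sources used here do not say how reads that match both were counted. Over 6 SNAP protein genes including these, edgeR called 0 and DESeq2 called 1, and 2 had an unadjusted p under 0.05. Of all tested genes, edgeR called 19.6%.

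Per length, snap25b stood at 0.532, 0.561 and 0.618 of the snap25a level (FPKM) in the bcas2-KO pools and at 0.689, 0.660 and 0.578 in the WT pools. The log2 ratio was lower by 0.17 in bcas2-KO (difference -0.17, two-sided exact permutation test, p = 0.2, adjusted p = 0.6 over 3 ratios), and 3 pools against 3 cannot give a p below 0.1. The elavl4 to elavl3 ratio was 0.750 ± 0.0887 in bcas2-KO and 0.733 ± 0.0746 in WT (SD, n = 3 pools each; exact permutation p = 0.8, adjusted 0.9). The stmn4 to stmn1b ratio was 0.375 ± 0.0534 in bcas2-KO and 0.416 ± 0.175 in WT (SD, n = 3 pools each; exact permutation p = 0.9, adjusted 0.9). None of these 3 ratios separated the genotypes. In the 4 libraries low in eye transcripts the log2 ratio differences of snap25b to snap25a, elavl4 to elavl3 and stmn4 to stmn1b were -0.18, 0.064 and -0.36, against -0.17, 0.031 and -0.079 in all 6.

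The calcium sensor gene syt1a did not pass either. This gene (ENSDARG00000030614) had 60.0, 40.6 and 65.6 CPM in the bcas2-KO pools, against 60.9, 67.4 and 61.7 CPM in the WT pools. Of these, bcas2-KO pool 2 was low and the others lay together. The log2 fold change was -0.19 (SE 0.16, 95% interval -0.56 to 0.18, edgeR adjusted p = 0.438), and it depended on single bcas2-KO pools. It was -0.010 without bcas2-KO pool 2, -0.33 without bcas2-KO pool 3 and -0.35 in the 4 libraries low in eye transcripts (edgeR adjusted p = 0.955, 0.210 and 0.241). Over 17 synaptotagmin genes including syt1a, 1 was called lower (syt9b) and 0 higher, 2 had an unadjusted p under 0.05 and DESeq2 called 1. Over all tested genes edgeR called 9.01% lower and 10.6% higher.

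Complexin transcripts gave the largest difference of the set. The cplx2 gene ENSDARG00000111920 had 38.1, 28.1 and 36.6 CPM in the bcas2-KO pools, against 59.5, 49.9 and 53.2 CPM in the WT pools. Each bcas2-KO pool was below each WT pool by a wide gap. The mean was 34.3 ± 5.39 CPM in bcas2-KO and 54.2 ± 4.88 CPM in WT (SD, n = 3 pools each), 1.58-fold lower. The log2 fold change was -0.66 (SE 0.12, 95% interval -0.93 to -0.39, edgeR adjusted p = 0.00646), and -0.63 in the 4 libraries low in eye transcripts (edgeR adjusted p = 0.0284).

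The other gene named cplx2 (ENSDARG00000061918) had 25.1, 25.3 and 22.8 CPM in bcas2-KO and 27.5, 31.4 and 29.6 CPM in WT. Its genotypes did not overlap either, but its log2 fold change of -0.27 (SE 0.088, 95% interval -0.47 to -0.074) missed the threshold (edgeR adjusted p = 0.0576). It passed without WT pool 1 (-0.31, edgeR adjusted p = 0.0363) and did not in the 4 libraries (-0.27, edgeR adjusted p = 0.102). The ratio of counts to FPKM put the gene model of ENSDARG00000061918 at 14.4 times the length of the other, about 2614 against 182 bases if FPKM were scaled to the column totals. The called cplx2 gene is therefore a short model, and its high FPKM (154 to 209 in bcas2-KO, 278 to 325 in WT) rests on 1136 to 3039 counts per library. How its reads relate to those of ENSDARG00000061918 was not tested.

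A further complexin 2 gene, cplx2l, which is not among the 10 symbols, fell as well. It had 92.0, 85.0 and 90.6 CPM in the bcas2-KO pools, against 112, 115 and 125 CPM in the WT pools (log2 fold change -0.40, SE 0.076, edgeR adjusted p = 0.00752). All 3 bcas2-KO pools were below the WT pools, and its call held without any 1 pool. Of the 7 tested complexin genes, 2 were called lower and 0 higher (DESeq2 called 2), and 4 had an unadjusted p under 0.05. Among all tested genes edgeR called 9.01% lower and 10.6% higher. The genes cplx3a, cplx3b, cplx4a and cplx4c, for complexins best known from the mammalian retina, did not pass.

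**Figure D3:**
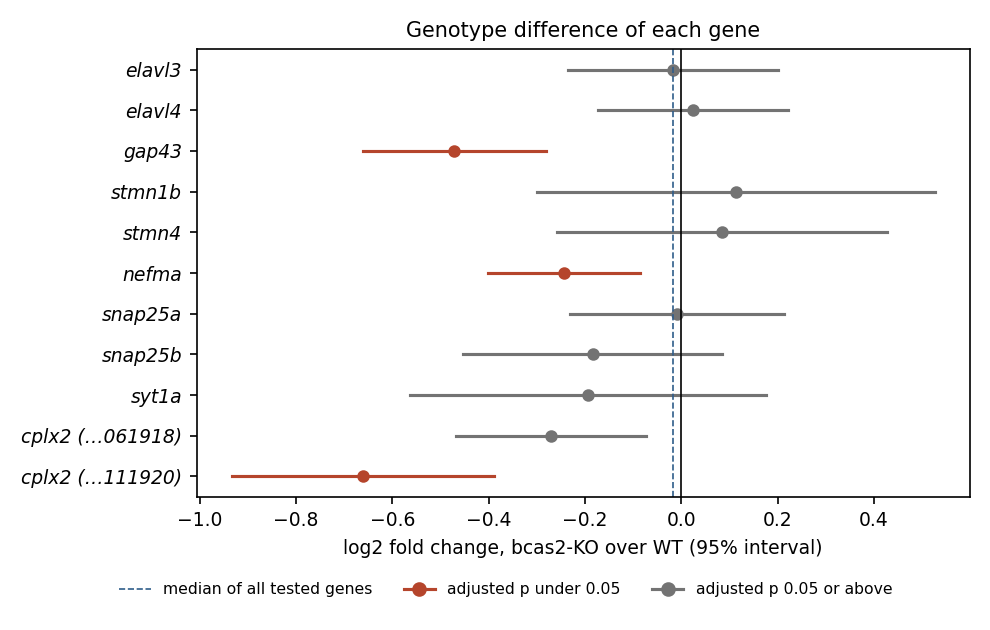
Log2 fold change of bcas2-KO over WT (horizontal axis) with its 95% interval for each of the 11 genes, with the median of all tested genes as a dashed line; red marks an adjusted p under 0.05. The intervals of gap43, nefma and both cplx2 genes lie wholly below 0, that of cplx2 gene ENSDARG00000061918 without a call, and those of elavl3, elavl4 and snap25a are centred close to it.

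Levels between genes were compared per length, as FPKM. In bcas2-KO the order of the level was the short cplx2 gene, snap25a, gap43, elavl3, snap25b, stmn1b, elavl4, nefma, syt1a, stmn4 and the long cplx2 gene. In bcas2-KO gap43 stood below snap25a, with 79.3 to 86.35 FPKM against 86.43 to 110 FPKM, ranges that nearly touched. In WT gap43 stood above snap25a, with 112 to 127 FPKM against 94.6 to 107 FPKM. This order depends on the gene models, of about 478 bases for gap43 and 1259 for snap25a if FPKM were scaled to the column totals. Neighbours whose ranges overlapped in bcas2-KO were snap25b with stmn1b, stmn1b with elavl4, and syt1a with stmn4. Those in WT were elavl3 with snap25b, elavl4 with stmn1b, and stmn1b with nefma. The lowest level was that of the long cplx2 gene, at 9.29 ± 0.557 FPKM in bcas2-KO and 11.3 ± 0.857 FPKM in WT (SD, n = 3 pools each).

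Pools of a genotype also differed from each other across the set. Among the bcas2-KO pools, pool 2 had the lowest CPM for 9 of the 11 genes, while it was the lowest for 37.1% of all tested genes. The exceptions were elavl3 and the long cplx2 gene. The summed CPM of the 11 genes was 812, 696 and 792 in the bcas2-KO pools, against 840, 840 and 795 in the WT pools. No single WT pool was lowest for more than 4 of the 11. Variation was largest for syt1a in bcas2-KO (coefficient of variation 23.7%, against 5.62% in WT) and for stmn1b in WT (26.9%, against 5.48% in bcas2-KO).

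Lists of further genes of the axon and the synapse, 6 in all and without the 10 above, gave calls in both directions. Over the 201 genes of these lists that were tested, 12 were called higher and 20 lower by edgeR, or 15.9%, beside 19.6% of all genes, and their median log2 fold change was -0.035, beside -0.018. The balance depended on the scaling, with 7 higher and 27 lower under upper-quartile factors and 9 higher and 13 lower with library totals only. It was 4 and 8 without bcas2-KO pool 1, 11 and 10 without bcas2-KO pool 2, 5 and 14 without bcas2-KO pool 3, 22 and 20 without WT pool 1, 4 and 5 without WT pool 2, and 8 and 13 without WT pool 3 (higher first).

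Among genes of axon growth and the neuronal cytoskeleton, 6 of 50 fell and 2 rose (median log2 fold change 0.021). That is 16% called, beside 19.6% of all tested genes. The microtubule-binding kinase gene dclk1a fell to 6.76 CPM in bcas2-KO, against 12.1 CPM in WT (log2 fold change -0.84, edgeR adjusted p = 0.00246), and the adhesion gene ncam1a fell by 0.48 on the log2 scale (edgeR adjusted p = 0.00524). The others that fell were inaa, inab and neflb, described above, and the actin-binding protein gene marcksl1a (-0.31, edgeR adjusted p = 0.0405), chosen after its values were seen. The axonal kinesin gene kif5aa rose by 0.37 (edgeR adjusted p = 0.0403) and the neuronal adhesion gene nrcama by 0.37 (edgeR adjusted p = 0.0499). The related genes marcksa and marcksb did not pass, with log2 fold changes of 0.53 and 0.45. Calls of dclk1a, inaa and ncam1a held without any 1 pool. That of kif5aa was lost without bcas2-KO pool 1 or 3 or WT pool 2 or 3 (edgeR adjusted p = 0.0963 to 0.156), and that of marcksl1a without the same pools (0.103 to 0.144). The nrcama call was lost without bcas2-KO pool 1 or 3 or any WT pool (edgeR adjusted p = 0.0516 to 0.153). The list's count was 3 without bcas2-KO pool 1, bcas2-KO pool 3 or WT pool 2. It was 5 without WT pool 3 and 12 without WT pool 1, against 8 in all pools.

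Among axon guidance receptors, 5 of 26 fell and 1 rose (median log2 fold change -0.19). Of all tested genes, 19.6% were called, 9.01% as lower and 10.6% as higher, with a median log2 fold change of -0.018. The semaphorin receptor genes plxna1a and plxna3 fell by 0.52 and 0.35 on the log2 scale (edgeR adjusted p = 0.00557 and 0.0119), the netrin receptor gene dcc by 0.58 (0.0209) and the neuropilin gene nrp1a by 0.23 (0.0397). The fifth was nrp2a (-0.33, edgeR adjusted p = 0.0414), chosen after its values were seen. The neogenin gene neo1b (ENSDARG00000075100) rose to 50.1 CPM in bcas2-KO, against 36.9 CPM in WT (log2 fold change 0.44, edgeR adjusted p = 0.00693). The netrin receptor genes unc5da (-0.52) and unc5db (-0.39) did not pass. Only plxna1a and neo1b kept their calls without any 1 pool. The plxna3 call was lost without WT pool 2 (edgeR adjusted p = 0.0605), that of dcc without bcas2-KO pool 1 or 2 or WT pool 2 (0.0651 to 0.104), that of nrp1a without any 1 pool (0.0545 to 0.150) and that of nrp2a without any pool except WT pool 1 (0.0575 to 0.164). The list's count was 3 without bcas2-KO pool 1 or 2 and 2 without WT pool 2, against 6 in all pools.

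Among other neuronal RNA-binding proteins, 2 of 20 rose and 2 fell (median log2 fold change 0.026). That is 20% called, beside 19.6% of all tested genes. Both genes of the neuronal splicing repressor Ptbp2 rose, ptbp2a by 0.54 and ptbp2b by 0.51 on the log2 scale (edgeR adjusted p = 0.00661 and 0.0151). The splicing regulator genes rbfox1 and rbfox3a, the second of which codes for the neuronal marker NeuN, fell by 0.31 and 0.35 (edgeR adjusted p = 0.0185 and 0.0203). Of the genes that did not pass, celf3b had a log2 fold change of 0.87 (edgeR adjusted p = 0.0589) and celf4 one of -0.36 (0.0939). The celf3b difference passed without WT pool 1 or 3 (edgeR adjusted p = 0.0272 and 0.0389) and with DESeq2 (adjusted p = 0.00378). The ptbp2a call held without any 1 pool. That of ptbp2b was lost without bcas2-KO pool 1 or 3 (edgeR adjusted p = 0.0531 and 0.0590), that of rbfox1 without bcas2-KO pool 1 or 2 or WT pool 2 (0.0691 to 0.0868), and that of rbfox3a without the same pools (0.0610 to 0.0708). The list's count was 1 without bcas2-KO pool 1 and 2 without bcas2-KO pool 2 or WT pool 2, against 4 in all pools.

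Among genes of the SNARE fusion machinery and its calcium sensors, 3 of 53 fell and 2 rose (median log2 fold change -0.046). With 9.43% called, the list was below the 19.6% of all tested genes. Beside cplx2l, the synaptotagmin gene syt9b fell by 0.65 (edgeR adjusted p = 0.0254), and unc13ba fell from a low level, to 0.382 CPM in bcas2-KO, against 0.920 CPM in WT (edgeR adjusted p = 0.0461). The vesicle priming gene unc13a rose by 0.57 (edgeR adjusted p = 0.0142) and the active zone gene rims2b by 0.61 (edgeR adjusted p = 0.0199). The genes rab3b (1.02) and snap23.2 (-0.91) did not pass (edgeR adjusted p = 0.0803 and 0.0631), and both passed without WT pool 1 (0.0197 and 0.0254) and with DESeq2 (adjusted p = 0.0150 and 0.0139). The unc13a call was lost without bcas2-KO pool 1 or WT pool 2 (edgeR adjusted p = 0.0688 and 0.0625), that of rims2b without bcas2-KO pool 1 or 3 or WT pool 2 (0.0682 to 0.0889), that of syt9b without bcas2-KO pool 2 or 3 or WT pool 2 or 3 (0.0525 to 0.0987), and that of unc13ba without any pool except bcas2-KO pool 3 (0.0547 to 0.144). The list's count was 8 with DESeq2 and without WT pool 1, 3 without bcas2-KO pool 2 or WT pool 3, 2 without bcas2-KO pool 1 and 1 without WT pool 2, against 5.

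Among synaptic vesicle proteins and recycling factors, 2 of 28 fell and 1 rose (median log2 fold change -0.0012). With 10.7% called, the list was below the 19.6% of all tested genes. The synapsin gene syn2a rose by 0.47 (edgeR adjusted p = 0.0409), whereas its paralog syn2b fell by 0.66, to 4.74 CPM in bcas2-KO, against 7.48 CPM in WT (edgeR adjusted p = 0.0125). The proton pump subunit gene atp6v0a1a fell by 0.25 (edgeR adjusted p = 0.0439). The synuclein gene sncgb (-0.31) and the dynamin gene dnm1a (-0.32) did not pass. The syn2b call was lost without WT pool 2 (edgeR adjusted p = 0.0593), that of syn2a without bcas2-KO pool 1 or 3 or WT pool 2 or 3 (0.115 to 0.149) and that of atp6v0a1a without any 1 pool (0.0537 to 0.153). The list's count was 1 without bcas2-KO pool 1 or 3 or WT pool 3 and 0 without WT pool 2, against 3.

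Among synaptic adhesion and scaffold genes, 4 of 24 rose and 2 fell (median log2 fold change -0.11). That is 25% called, beside 19.6% of all tested genes. The scaffold gene dlg4b (ENSDARG00000039385), for a PSD-95 protein, rose to 15.6 CPM in bcas2-KO, against 6.26 CPM in WT (log2 fold change 1.31, edgeR adjusted p = 0.00107). The neuroligin gene nlgn3b rose by 0.76 (edgeR adjusted p = 0.0150), the gephyrin gene gphnb by 0.44 (0.0326) and homer1b by 0.27 (0.0486). The neuroligin gene nlgn1 fell by 0.78 (edgeR adjusted p = 0.0234) and the neurexin gene nrxn3a by 0.42 (0.0347). The genes shank3a (0.73) and nlgn4xa (-0.52) did not pass. The dlg4b call held without any 1 pool. That of nlgn3b was lost without bcas2-KO pool 1 or 3 or WT pool 2 (edgeR adjusted p = 0.0555 to 0.0688), that of gphnb without the same pools or WT pool 3 (0.0831 to 0.119) and that of homer1b without any pool except bcas2-KO pool 1 (0.0621 to 0.157). The nlgn1 call was lost without bcas2-KO pool 1 or 2 or WT pool 2 (edgeR adjusted p = 0.0623 to 0.0872) and that of nrxn3a without any pool except WT pool 1 (0.0533 to 0.111). The list's count was 2 without bcas2-KO pool 1 or 3, 3 without bcas2-KO pool 2 or WT pool 3 and 1 without WT pool 2, against 6.

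**Figure D4:**
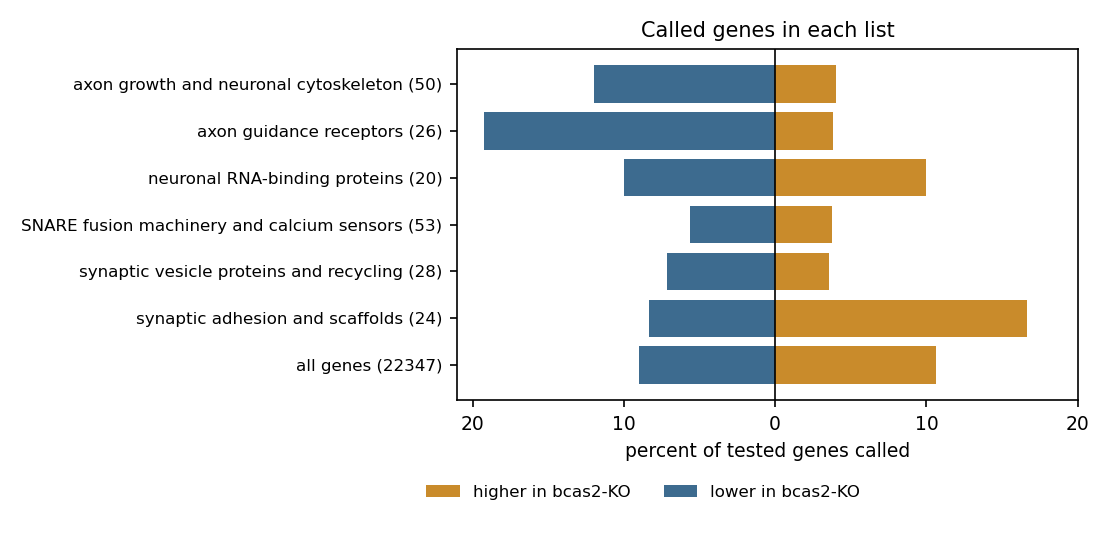
Percent of the tested genes of each list (number tested in brackets) called higher in bcas2-KO (right of 0) or lower (left of 0), with all genes as the last bar. Of these lists, guidance receptors have the largest share of lower calls (5 of 26) and the adhesion and scaffold list the largest share of higher calls (4 of 24).

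Counts of called markers of other cells are read against the 9.01% of all tested genes called lower and the 10.6% called higher. In the glia list 6 of 16 fell and 0 rose by edgeR (DESeq2 called 6, and 9 had an unadjusted p under 0.05), and its summed level was 864 to 984 CPM in bcas2-KO and 1076 to 1264 CPM in WT, with no member at 0 in all libraries. The radial glia gene fabp7a fell to 71.1 CPM in bcas2-KO, against 123 CPM in WT (edgeR adjusted p = 0.00271), and the glutamine synthetase gene glula by 0.52 on the log2 scale (edgeR adjusted p = 0.0118, and 0.0613 without WT pool 2). Among neural progenitor markers fabp7a and ascl1b (-1.09, edgeR adjusted p = 0.0118) fell and 19 of 21 did not pass, and summed levels were 899 to 995 CPM in bcas2-KO and 944 to 1200 CPM in WT. The ascl1b call was lost without bcas2-KO pool 1 or WT pool 2 (edgeR adjusted p = 0.0548 and 0.0573).

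Endocrine cells of the pancreas and pituitary also use Snap25, synaptotagmins and complexins, and in their list 4 of 14 fell and 0 rose by edgeR, beside 9.01% lower among all genes (DESeq2 called 5, and 4 had an unadjusted p under 0.05). Secretogranin gene scg3 fell by 0.52 and the somatostatin gene sst2 by 1.26 (edgeR adjusted p = 0.00699 and 0.00851), and the summed level was 183 to 248 CPM in bcas2-KO and 239 to 254 CPM in WT. For markers of retinal ganglion and amacrine cells 0 of 11 were called by either edgeR or DESeq2, with 1 at an unadjusted p under 0.05, at 202 to 240 CPM in bcas2-KO and 189 to 223 CPM in WT. In skeletal muscle 1 of 16 rose (myog) and 1 fell (acta1a), at 111797 to 130311 CPM in bcas2-KO and 112334 to 147973 CPM in WT, and the myog call was lost without WT pool 2 (edgeR adjusted p = 0.0612). The part of glia, progenitors, endocrine cells and muscle in the neuronal values was not tested.

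The eye lists were high in 1 library of each genotype. In the lens list edgeR called 0 of 5 tested genes, none of which reached an unadjusted p under 0.05, and DESeq2 called 1. The sum was 1.19 to 171 CPM in bcas2-KO and 3.42 to 208 CPM in WT. In the photoreceptor and pigment epithelium list 0 of 17 were called by edgeR or DESeq2, with 1 at an unadjusted p under 0.05, and sums of 31.9 to 176 CPM in bcas2-KO and 21.2 to 293 CPM in WT. The cone opsin gene opn1sw1 had 22.1 CPM in bcas2-KO pool 3, 27.7 CPM in WT pool 1 and at most 0.389 CPM elsewhere. Not every gene of this list was split in this way. The gene pde6a had 2.42, 1.86 and 2.68 CPM in bcas2-KO and 2.09, 1.08 and 1.20 CPM in WT. For gngt1 the values were 0, 0.0495 and 0.308 CPM in bcas2-KO and 1.62, 0.352 and 0.150 CPM in WT. In bcas2-KO pool 3 and WT pool 1 gap43 had 41.7 CPM and 61.3 CPM. In the other 4 libraries it had 38.1 to 41.2 CPM in bcas2-KO and 52.9 to 53.4 CPM in WT.

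**Figure D5:**
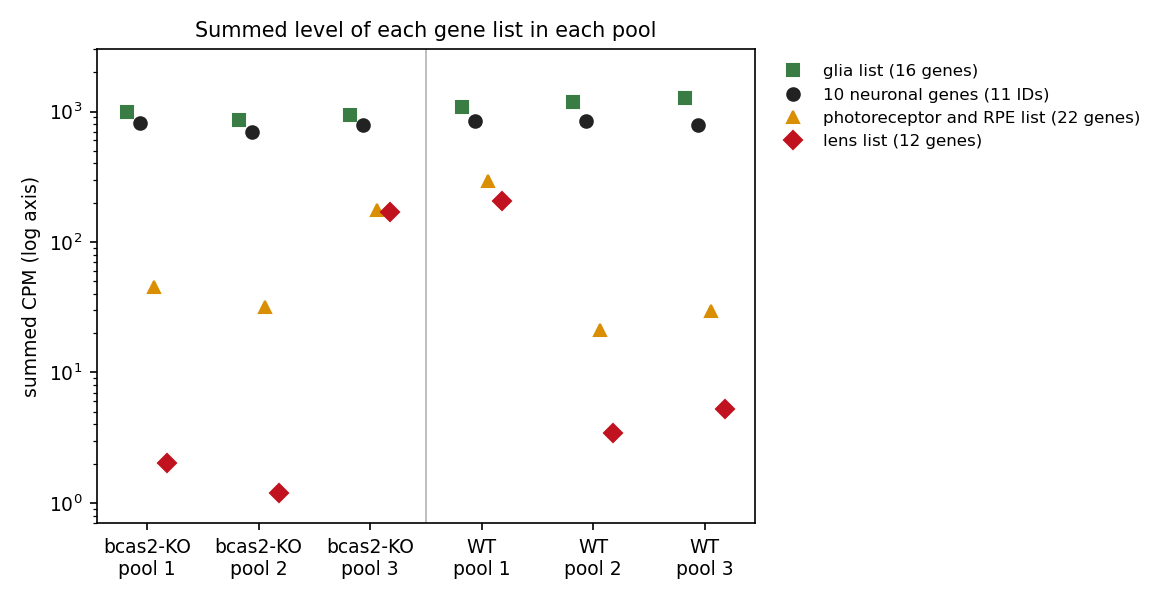
Summed CPM (log axis) of the 10 neuronal genes, the glia list, the photoreceptor and retinal pigment epithelium (RPE) list and the lens list in each of the 6 pools. The neuronal genes sum to 696 to 840 CPM in every pool, while the lens list is at 171 CPM in bcas2-KO pool 3 and 208 CPM in WT pool 1 and at most 5.21 CPM in the other 4.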

How the data were processed

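RNA sequencing libraries came from 6 pools of whole embryos. The deposited table of raw counts holds whole reads per Ensembl gene, and the authors' second table holds FPKM values of the same 32520 genes. Per the submitters' processing notes, cutadapt 1.15, STAR 2.6.1a, featureCounts 1.6.0, StringTie 1.3.3b, DESeq2 1.22.1 and the build GRCz11 (danRer11) were used. The sources used here do not say which tool made each table, nor the annotation, the strand setting or how reads that match several genes were handled. Reads of overlapping antisense genes therefore cannot be told apart.

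Counts were filtered with filterByExpr of edgeR 4.0.16 (minimum count 10), scaled by TMM factors and tested with the quasi-likelihood test (robust fit, 1 term for genotype) under R 4.3.3. P-values were adjusted by Benjamini-Hochberg over 22347 genes, and genes under 0.05 are called. SEs follow from the F statistic. A floor of 3 counts was 0.0727 to 0.0923 CPM in bcas2-KO and 0.0587 to 0.0897 CPM in WT; it and the counting errors cover counting error only. The test was also run on simulated counts drawn gene by gene. These held no differences shared by many genes of a pool, such as the eye transcripts, so the run does not cover such differences. Of 101 genes without a symbol, 84 were named from a table of symbols. Libraries of 1 genotype differed far beyond sampling noise (chi-square per degree of freedom 12.7 to 34.4), so each was counted as its own pool. Same-numbered pools had correlated deviations of -0.14, 0.37 and 0.013 for numbers 1, 2 and 3, so the numbers were not taken as pairs.

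The genes, the 6 lists of pathway genes and the 7 lists of markers (lens, photoreceptors, retinal neurons, progenitors, glia, endocrine cells, muscle) were chosen with earlier results of these data known. The text names, by rule, up to 4 called genes per direction with the smallest p in each pathway list, the 2 largest log2 fold changes that were not called with at least 1 CPM, and up to 2 genes per marker list; the eye lists are given by counts and levels. Of the 222 symbols of the pathway lists, 202 matched. Alternatives were DESeq2 1.42.0, limma 3.58.1 on log2(FPKM + 0.1) and log2(FPKM + 1), other scalings and filters, the replicate block, single pools left out, and 4 libraries.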

Additional observations from a re-analysis of the deposited data

How the results depend on the processing

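The differences of bcas2, gap43, cplx2l and cplx2 gene ENSDARG00000111920 kept their direction and stayed past the threshold in all 16 alternatives, at log2 fold changes of -0.53 to -0.39 for gap43 and -0.74 to -0.53 for this cplx2 gene. The number of the 11 genes called was 2 to 4. With library totals only, nefma was not called (-0.20), nor without a filter on low counts (-0.23) or in the 4 libraries low in eye transcripts (-0.23), and it lay between -0.27 and -0.21 when single pools were left out. The long cplx2 gene was called with upper-quartile factors (-0.33) and the stricter filter (-0.29), and ranged from -0.31 to -0.22 without single pools. Genes near 0 changed sign: elavl3 with library totals (0.021), elavl4 with upper-quartile factors (-0.036), and snap25a with library totals (0.031), without a filter (0.0025) and in the 4 libraries (0.027). With library totals nefmb was at 0.021, and it lay between -0.063 and 0.063 without single pools, at 0.0014 without bcas2-KO pool 2.

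Leaving out single pools moved elavl3 between -0.080 and 0.098, elavl4 between -0.029 and 0.11, stmn1b between -0.072 and 0.32, stmn4 between -0.056 and 0.22, snap25a between -0.078 and 0.084, snap25b between -0.27 and -0.071 and syt1a between -0.33 and -0.010. The log2 ratio difference of elavl4 to elavl3 lay between -0.051 and 0.13, and that of stmn4 to stmn1b between -0.35 and 0.24. Counts of all genes called ran from 1730 to 5171, and counts in the lists from 3 to 12 (axon growth), 2 to 6 (guidance), 1 to 6 (RNA-binding), 1 to 8 (SNARE), 0 to 4 (vesicle) and 1 to 6 (adhesion). The axon growth list had 4 calls with library totals and 4 with limma at either pseudocount, the vesicle list 1 with library totals, the adhesion list 3 with limma at either pseudocount, and the SNARE list 8 with DESeq2. Over the other named genes and all alternatives, 146 values lost a call and 15 gained one, against 682 that did neither and kept their sign. In the 4 libraries low in eye transcripts 12 of these 53 genes lost a call and 1 gained one. The causes were not tested.

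With the replicate block 4922 genes were called, against 4382 without it, and 3 of the 11 either way. Among the other named genes the block ended the calls of nrcama and unc13ba (edgeR adjusted p = 0.0501 and 0.0541) and added celf3b, rab3b and sncgb (0.0480, 0.0459 and 0.0229). The numbers did not pair all pools. Deviations of bcas2-KO pool 1 correlated best with WT pool 3 (0.17) and those of bcas2-KO pool 3 with WT pool 1 (0.29). Those of bcas2-KO pool 2 correlated best with the same-numbered WT pool 2 (0.37). Whether pools of the genotypes share a batch was not tested. The 11 genes had at least 730 counts in each library. With 3 pools a genotype, a gene that did not pass may still differ by an amount inside its interval.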
